A study of Mus musculus with 31 samples.

Results

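The comparison described here is cigarette smoke against room air in lungs of C57 BL/6 mice (C57 from here on) that then received saline through the trachea. It rests on 6 of the 31 arrays of the series: the 3 arrays titled as C57, cigarette smoke and normal saline, and the 3 titled as C57, room air and normal saline. The mice were male and labelled 6 weeks old, no transgene or mutation is labelled, and RNA came from homogenised whole lung. Both groups are titled with 3 weeks of exposure, while the series text speaks of 6 weeks for mice that were instilled, and the length is therefore uncertain. Beside these stand 3 C57 arrays of mice that breathed room air, titled 6 weeks, and were not instilled (room air alone below). Further groups are C57 mice given LPS in saline after smoke (3 arrays) or air (3), and mice of the AKR strain given saline after smoke (3) or air (3). Values are log2 intensities, 1 unit being a doubling, and the small number of arrays limits every value. In homogenised lung, fewer cells of a type and less RNA per cell cannot be told apart. The titles call the replicates biological and say nothing further of the animals.

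Cigarette smoke carries polycyclic aromatic compounds that bind the aryl hydrocarbon receptor (AhR), a cytosolic transcription factor. Bound AhR enters the nucleus, pairs with ARNT and induces its targets, of which Cyp1a1, a cytochrome P450 that oxidises these compounds, is the best known in lung. Smoke also carries oxidants, which release the factor NRF2 (Nfe2l2) from its repressor KEAP1 and so raise genes of glutathione synthesis and quinone reduction. The lung further holds a circadian clock: CLOCK and BMAL1 (gene Arntl) drive the Per and Cry genes, whose proteins repress them in turn, and glucocorticoids entrain it.

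The AhR and ARNT bind DNA at a core of GCGTG, and CLOCK and BMAL1 at the E-box CACGTG. The 250 bases before the start are shown for the 3 AhR targets that lay higher on all smoke arrays, with the core or its complement in capitals (RefSeq, build GRCm38.p6, each 5′ to 3′ on the gene's own strand). They lie at chr9:57697363-57697612 (plus strand, Cyp1a1), chr17:79715062-79715311 (minus strand, Cyp1b1) and chr3:65528197-65528446 (plus strand, Tiparp).
Cyp1a1: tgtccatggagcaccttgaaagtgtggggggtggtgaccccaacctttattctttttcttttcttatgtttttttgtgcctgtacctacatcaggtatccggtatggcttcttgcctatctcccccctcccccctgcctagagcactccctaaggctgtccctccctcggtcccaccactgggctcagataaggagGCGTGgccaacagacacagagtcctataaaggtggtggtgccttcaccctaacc
Cyp1b1: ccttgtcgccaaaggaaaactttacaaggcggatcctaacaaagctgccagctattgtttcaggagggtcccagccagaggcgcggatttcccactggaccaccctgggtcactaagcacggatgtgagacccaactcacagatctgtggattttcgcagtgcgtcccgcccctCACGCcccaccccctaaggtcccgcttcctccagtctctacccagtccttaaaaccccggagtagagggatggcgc
Tiparp: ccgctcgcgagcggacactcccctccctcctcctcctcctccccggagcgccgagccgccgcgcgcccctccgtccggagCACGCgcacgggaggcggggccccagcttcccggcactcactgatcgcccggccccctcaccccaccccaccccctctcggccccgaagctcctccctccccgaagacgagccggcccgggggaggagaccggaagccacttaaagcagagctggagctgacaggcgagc
Each holds 1 match, which begins 54 bases before the start in Cyp1a1, 76 in Cyp1b1 and 170 in Tiparp. On either strand the core stands in 28.2% of the 32851 mouse windows of this length, each counted singly. A listed gene counts if any of its windows holds the core, so the list shares and the 28.2% are unlike measures. By gene the core stands in 4 of the 7 listed AhR targets that have a window, and in 13 of 14 clock genes. Its presence therefore does not set the AhR targets apart. The clock genes are represented by Per1 (chr11:69098699-69098948, plus strand) and Tef (chr15:81802423-81802672, plus strand), with the E-box in capitals.
Per1: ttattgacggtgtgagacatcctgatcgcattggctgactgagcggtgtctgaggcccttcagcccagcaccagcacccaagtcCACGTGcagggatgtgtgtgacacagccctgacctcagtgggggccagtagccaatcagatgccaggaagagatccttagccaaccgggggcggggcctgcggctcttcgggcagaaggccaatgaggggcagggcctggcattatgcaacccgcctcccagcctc
Tef: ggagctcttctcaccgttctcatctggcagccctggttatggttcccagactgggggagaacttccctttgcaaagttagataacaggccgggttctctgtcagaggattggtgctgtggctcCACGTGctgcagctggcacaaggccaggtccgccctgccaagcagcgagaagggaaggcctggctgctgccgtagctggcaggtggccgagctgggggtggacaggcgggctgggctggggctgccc
The E-box stands in 5 of 14 clock genes with a window, counted by gene, and in 6.02% of all windows, counted singly. Each of these genes has 2 windows in the table, and the window with the E-box is shown. A match of letters is a description and not a binding site.

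The third smoke array stood apart from the other 2 smoke arrays before any gene was compared. Over the genes tested it correlated at 0.962 and 0.955 with smoke arrays 1 and 2, which correlated at 0.988 with each other. Its correlation was 0.964 with smoke LPS array 1, 0.991 with smoke LPS array 2 and 0.974 to 0.988 with the air LPS arrays. Saa3, an acute-phase protein that LPS induces strongly, had values of 6.10, 6.36 and 12.47 on smoke arrays 1, 2 and 3, against 5.98, 6.05 and 6.09 on the air arrays. On array 3, 305 genes lay more than 1 log2 unit above the mean of the air arrays and 129 more than 1 below it, whereas array 1 had 9 and 12 and array 2 had 4 and 4. In the other direction, smoke LPS array 3 correlated at 0.984 with smoke saline arrays 1 and 2. How this came about was not tested, and the labels were kept. Counts and medians of the gene lists and the fitted differences are given as labelled (3 against 3), without array 3 (2 against 3) or both, and the values of single arrays show where array 3 departs.

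No gene passed the test. In limma's test over the 14705 genes above a floor of intensity, 0 genes (0%) passed an adjusted p of 0.05 as labelled, with 906 genes at an unadjusted p under 0.05 and a smallest adjusted p of 0.442. Without array 3, 0 genes (0%) passed, 342 had an unadjusted p under 0.05, and the smallest adjusted p was 1. Without array 3 and smoke LPS array 3 together, 0 genes (0%) passed and 440 had an unadjusted p under 0.05. When arrays were weighted by their estimated quality, 24 genes passed, among them Cyp1a1, Per2 and Cry1. The estimation of those weights stopped before it converged, and the other 18 of 19 alternatives gave 0 genes. Everything below is therefore a description of values, and "higher" and "lower" compare arrays without a passed test.

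As a background for such descriptions, the 3 smoke arrays lay above all 3 air arrays in 8.65% of genes and below them in 4.64%. For smoke arrays 1 and 2 the shares were 13.6% and 7.38%. Smoke arrays 1 and 2 lay above all 6 arrays of air with saline and room air alone in 3.35% of genes, and below all 6 in 1.52%. The median difference over all genes tested was 0.03 as labelled and 0.02 without array 3, and 57.4% and 58.3% of the differences were positive.

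Among the 5 tested targets of the AhR, Cyp1a1 was the 1 gene for which the smoke arrays lay above both air groups. Its values were 7.50, 6.90 and 6.95 on the smoke arrays, against 6.06, 6.16 and 6.59 on the air arrays and 6.79, 6.34 and 6.29 with room air alone. Array 3 shared the high value of the other smoke arrays. On air arrays 1 and 2 and room air alone arrays 2 and 3, Cyp1a1 lay under the 40th percentile of probe sets (6.435 to 6.508), the floor of intensity used here. The size of its difference is therefore uncertain. The difference was 0.85 ± 0.24 as labelled (standard error of the fit here and below, adjusted p = 0.653 in limma) and 0.93 ± 0.27 without array 3, which is 1.80-fold and 1.91-fold. Cyp1b1, the related P450 of stromal cells and endothelium, had 7.61, 7.43 and 7.81 with smoke, against 7.38, 7.03 and 7.05 with air. Smoke arrays were above air arrays for it too, by 0.46 ± 0.22 as labelled and 0.37 ± 0.25 without array 3, but room air alone array 3 (7.54) was above smoke array 2. Tiparp, an ADP-ribosyltransferase that restrains AhR signalling, had 9.21, 9.12 and 9.56 with smoke, against 8.85, 8.72 and 8.98 with air. Its difference was 0.44 ± 0.14 as labelled and 0.31 ± 0.15 without array 3, and room air alone array 1 (9.14) was above smoke array 2.

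The other AhR targets did not share this order. Nqo1, a quinone reductase that AhR and NRF2 both induce, had 7.33, 7.37 and 6.93 with smoke, against 7.41, 7.38 and 7.38 with air, and the smoke arrays lay below, by 0.04 ± 0.25 on the log2 scale without array 3. Aldh3a1, an aldehyde dehydrogenase of airway cells, had 7.68, 8.15 and 8.31 with smoke and 7.99, 8.43 and 7.97 with air, and the groups overlapped. Ahrr, the AhR repressor, and Cyp1a2 did not reach the floor of intensity. Of the 5 listed targets tested, 3 lay higher and 1 lower without overlap, both as labelled and without array 3. All genes did so at 8.65% and 4.64% as labelled, and at 13.6% and 7.38% without array 3. The median difference of the 5 was 0.44 as labelled and 0.31 without array 3. In the receptor complex, Arnt had 10.85, 10.58 and 10.73 with smoke, against 10.56, 10.58 and 10.53 with air. Ahr itself had 11.06, 10.72 and 10.46 with smoke and 10.80, 10.83 and 10.90 with air, in overlapping groups.

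**Figure D1:**
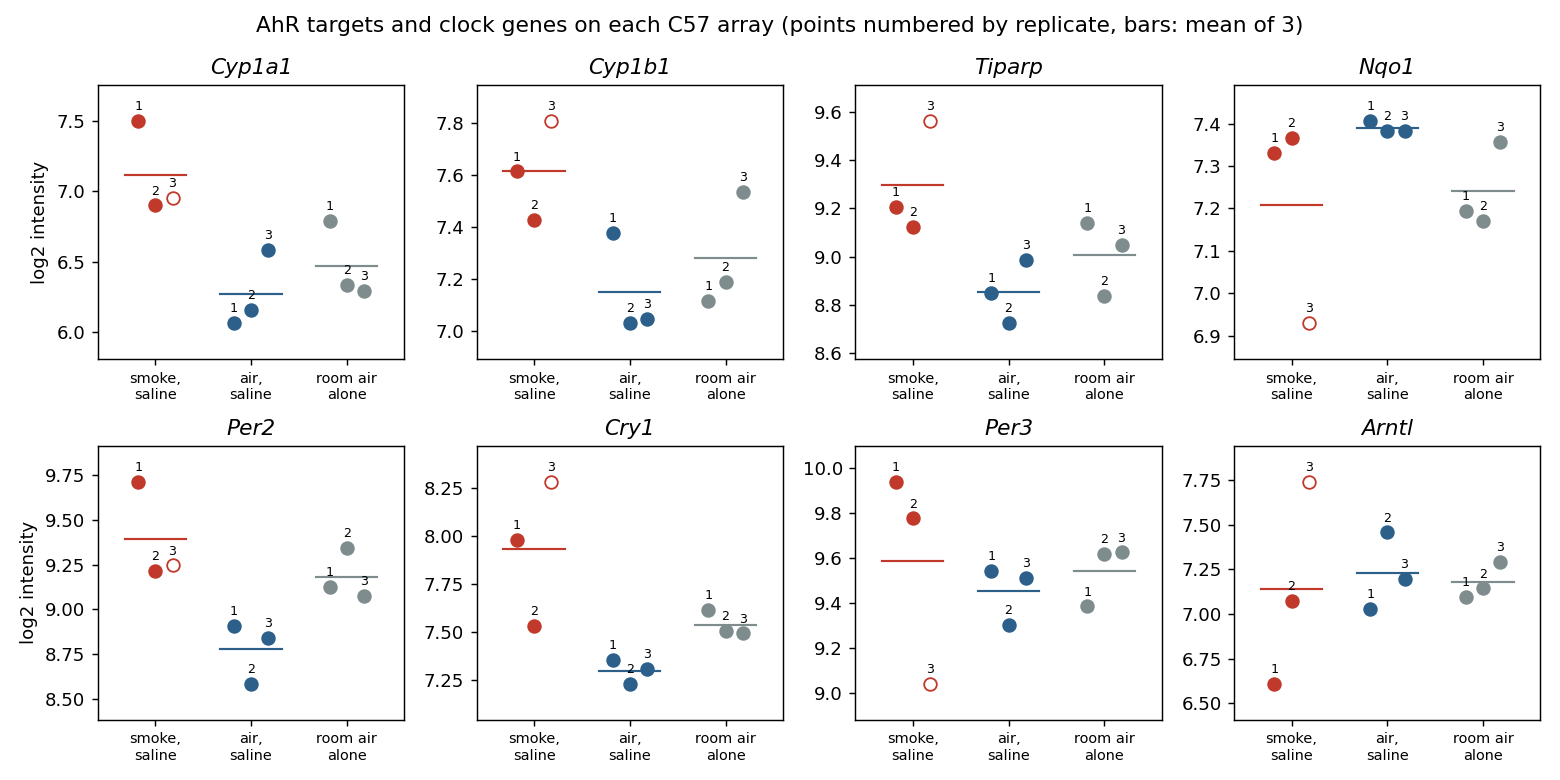
The plot of AhR targets and clock genes gives the log2 intensity (y axis, a separate scale in each panel) of every C57 array with smoke and saline, air and saline, and room air alone. Points carry the replicate number, the open point is smoke saline array 3, and bars are means of 3. All smoke points of Cyp1a1 (6.90 to 7.50) lie above all air points (6.06 to 6.79), whereas smoke array 3 leaves the other smoke arrays in Per3 and Arntl.

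Targets of NRF2 did not lie higher with smoke on arrays 1 and 2. Of 27 listed genes 26 were tested, and their median difference was 0.06 as labelled and -0.04 without array 3, against 0.03 and 0.02 over all genes. Without array 3, 2 of them lay above the air arrays and 5 below, against 13.6% and 7.38% of all genes. The higher ones were Tkt and Txn1, and the lower ones Gsr, Gstm1, Mt2, Nqo1 and Srxn1 (Tkt, Txn1 and Gsr named after their values were seen). Slc7a11, the cystine importer that feeds glutathione synthesis, had 6.91, 7.34 and 10.29 with smoke, against 7.47, 7.34 and 7.14 with air. Its as-labelled difference of 0.87 ± 0.82 came from array 3, and without it the difference was -0.19 ± 0.79. Hmox1, haem oxygenase, followed the same course, with 9.07, 9.02 and 10.47 with smoke and 9.05, 8.92 and 9.12 with air. Gclc, the catalytic subunit of glutathione synthesis, had 11.43, 11.57 and 11.78 with smoke and 11.44, 11.41 and 11.39 with air. Srxn1, sulfiredoxin, had 8.47, 8.44 and 8.71 with smoke and 8.57, 8.58 and 8.51 with air. Mt2, a metallothionein, had 10.92, 10.52 and 12.72 with smoke and 10.97, 11.10 and 10.92 with air. Array 3 was the highest of the 6 arrays for these 5 genes.

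The Per and Cry genes of the clock's negative limb lay higher on smoke arrays 1 and 2 than with air and saline, whereas Nr1d1, another repressor, lay lower. Array 3 departed from arrays 1 and 2 in several clock genes. Per2, a repressor of CLOCK and BMAL1, had 9.71, 9.21 and 9.25 with smoke, against 8.91, 8.59 and 8.84 with air. All 3 smoke arrays were above all 3 air arrays, by 0.61 ± 0.17 as labelled and 0.68 ± 0.19 without array 3 (adjusted p = 0.653 as labelled and 1 without array 3, limma). With room air alone Per2 had 9.13, 9.34 and 9.08, which overlapped the smoke arrays. Cry1, the partner of PER proteins, had 7.98, 7.53 and 8.28 with smoke, against 7.36, 7.23 and 7.31 with air, and room air alone (7.62, 7.51 and 7.49) reached smoke array 2. Its difference was 0.63 ± 0.17 as labelled and 0.46 ± 0.17 without array 3.

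Among the other clock genes, Per3 had 9.94, 9.78 and 9.04 with smoke, against 9.54, 9.30 and 9.51 with air and 9.39, 9.62 and 9.62 with room air alone. Tef, a PAR-domain activator under clock control, had 10.11, 9.84 and 9.57 with smoke, against 9.71, 9.49 and 9.67 with air. In both, smoke arrays 1 and 2 were above all 6 air arrays and array 3 was not. Hlf, of the same family as Tef, had 9.69, 9.19 and 8.53 with smoke and 9.01, 8.78 and 9.20 with air, and Per1 had 10.30, 10.08 and 10.05 with smoke and 10.08, 9.75 and 9.99 with air. Dbp, a further PAR-domain factor, had 10.53, 10.40 and 8.42 after smoke, against 10.57, 10.13 and 10.30 after air. Nr1d1, which encodes the repressor REV-ERBα, had 12.18, 12.30 and 10.49 after smoke, against 12.41, 12.38 and 12.38 after air. Ciart, a repressor driven by the clock, had 10.28, 9.73 and 9.16 with smoke, against 9.95, 9.33 and 10.01 with air. For Dbp and Nr1d1 array 3 was lower than every other of these arrays by more than 1 log2.

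On the positive limb, Arntl had 6.61, 7.07 and 7.74 with smoke and 7.03, 7.46 and 7.20 with air, and Clock 9.22, 9.36 and 9.79 with smoke and 9.33, 9.73 and 9.56 with air. Without array 3 the difference was -0.38 ± 0.27 in Arntl and -0.25 ± 0.13 in Clock. Of the 16 clock genes tested, 6 lay higher and 1 lower without overlap when array 3 was left out, against 13.6% and 7.38% of all genes. As labelled 2 lay higher and 1 lower, against 8.65% and 4.64%. The median difference of the 16 was 0.19 without array 3 and 0.09 as labelled. The time of day at which lungs were taken is not given in the sources used here, and its part in these values was not tested.

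Genes that glucocorticoids induce did not move together. Zbtb16, a zinc finger repressor, had 11.24, 10.13 and 11.40 with smoke, against 10.09, 9.37 and 9.93 with air, but room air alone was as high (11.49, 10.45 and 11.35). Fkbp5, a co-chaperone of the glucocorticoid receptor, had 8.36, 7.79 and 10.12 with smoke, against 7.57, 7.77 and 7.41 with air. Pdk4, a kinase that turns off pyruvate oxidation, had 7.999, 7.66 and 9.35 with smoke and 8.48, 8.87 and 8.92 with air, and Angptl4 had 8.17, 7.37 and 9.63 with smoke and 8.33, 8.38 and 8.17 with air. For Pdk4 and Angptl4, arrays 1 and 2 were at or below the lowest air array and array 3 was above all of them. Of 12 tested, 3 lay higher and 4 lower without array 3, against 13.6% and 7.38% of all genes. As labelled 2 lay higher and 0 lower, against 8.65% and 4.64%.

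Many markers of B and T lymphocytes were lower on the smoke arrays than on the air arrays with saline, but, with 1 exception, not lower than with room air alone. Bank1, an adaptor of the B cell receptor, had 8.75, 9.04 and 7.61 with smoke, against 9.45, 9.58 and 9.67 with air and 8.83, 8.75 and 8.80 with room air alone. Its difference was -1.10 ± 0.36 as labelled and -0.67 ± 0.35 without array 3. Cr2, the complement receptor of mature B cells, had 7.17, 7.45 and 6.19 with smoke, against 7.55, 7.90 and 7.98 with air and 7.26, 7.28 and 7.50 with room air alone. Of 17 B cell genes tested, 9 lay lower without overlap as labelled and 10 without array 3, against 4.64% and 7.38% of all genes. The median of the 17 was -0.59 as labelled and -0.28 without array 3. The number of them below both air groups was 0.

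T cell genes followed the same order. Cd3g, a chain of the T cell receptor complex, had 8.40, 7.93 and 7.90 with smoke, against 8.55, 8.84 and 8.54 with air and 8.30, 7.72 and 7.77 with room air alone. Cd6, a co-receptor, had 7.04, 6.80 and 6.87 with smoke, against 7.16, 7.26 and 7.16 with air. Of 12 T cell genes tested, 10 lay lower without overlap both as labelled and without array 3, against 4.64% and 7.38% of all genes. The median of the 12 was -0.29 as labelled and -0.20 without array 3. Of the 10, 1 (Cd3d, named after its values were seen) was below both air groups. Its means of 6.12 with smoke and 6.38 with air lay under the 40th percentile of probe sets (6.39 to 6.51), so this exception is uncertain. The paired chains of H2-O, a modulator of class II loading found mainly in B cells, were lower as well. H2-Oa had 7.86, 7.69 and 7.17 with smoke and 8.10, 8.45 and 8.12 with air, and H2-Ob had 9.80, 9.91 and 8.23 with smoke and 10.12, 10.42 and 10.28 with air. Of 8 class II genes tested, 3 lay lower without overlap in both settings, beside the same shares of all genes (4.64% and 7.38%).

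The air saline arrays were therefore the highest of the 3 C57 groups for these lists. The mean of the B cell list, taken relative to the air saline mean, was -0.30, -0.22 and -1.17 on the smoke arrays, -0.16, 0.06 and 0.10 on the air arrays and -0.53, -0.81 and -0.67 with room air alone. For the T cell list it was -0.17, -0.24 and -0.56 with smoke, -0.00, 0.06 and -0.06 with air and -0.16, -0.38 and -0.39 with room air alone. Array 3 had the lowest value of the 9 arrays in both lists. Room air alone differs from air with saline in the instillation and in the titled time, which cannot be told apart. Thymocyte markers, of which 4 of 7 were tested and the other 3 lay under the floor, had list means of -0.04, -0.21 and -0.27 with smoke and -0.09, 0.04 and 0.06 with air, and the part of lymphoid tissue taken with the lung was not tested.

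**Figure D2:**
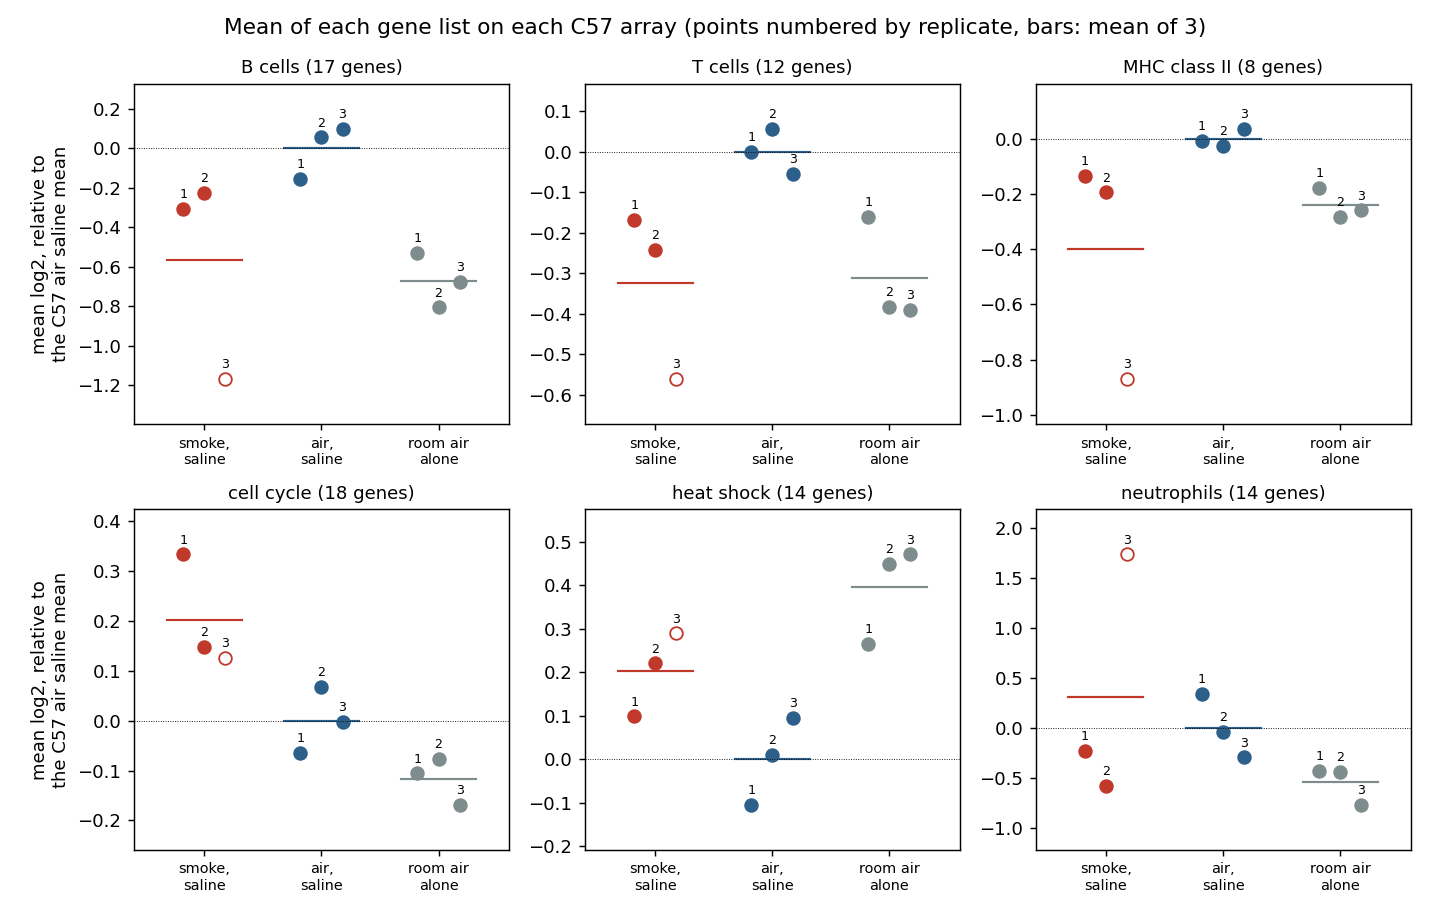
The plot of list means by array gives, for 6 gene lists, the mean log2 value relative to the C57 air saline mean (y axis, a separate scale in each panel) on every array of 3 C57 groups. Points carry the replicate number, the open point is smoke saline array 3, and bars are means of 3. B and T cell lists are lower with smoke than with air and saline, and as low with room air alone. Of these 3 groups, the cell cycle list is highest on the smoke arrays (0.13 to 0.33).

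Some genes of DNA replication and mitosis were higher with smoke than in both air groups. Cdk1, the mitotic kinase, had 7.46, 7.35 and 7.22 with smoke, against 6.97, 7.14 and 6.69 with air and 6.93, 6.86 and 6.90 with room air alone, a difference of 0.41 ± 0.18 as labelled and 0.47 ± 0.20 without array 3. Top2a, topoisomerase of dividing cells, had 7.32, 7.41 and 6.999 with smoke, against 6.73, 7.02 and 6.90 with air and 6.60, 7.04 and 6.91 with room air alone. Mki67, which encodes the proliferation antigen Ki-67, had 7.89, 7.78 and 7.78 with smoke, against 7.34, 7.54 and 7.54 with air. All 18 tested genes of the list had a positive difference without array 3, with a median of 0.23, against 0.02 over all genes. Of these, 8 lay above the air saline arrays without overlap, and the same 8 lay above room air alone too: Aurkb, Ccna2, Cdk1, Mcm2, Mki67, Pcna, Top2a and Tpx2 (those other than Top2a, Cdk1 and Mki67 named after their values were seen). Tpx2 (means 6.34 with smoke, 6.23 with air) and Birc5 (6.27 and 6.19) lay under the 40th percentile of probe sets (6.39 to 6.51), so their differences are uncertain. The shares of all genes without array 3 were 13.6% above air saline and 3.35% above both air groups. As labelled, 5 of the 18 lay above the air saline arrays without overlap, against 8.65% of all genes, with a list median of 0.19. The number above all 6 arrays of both air groups was also 5, against 1.88% of all genes. Rrm2, a subunit of ribonucleotide reductase, had 8.08, 7.62 and 7.98 with smoke and 7.56, 7.67 and 7.17 with air, in overlapping groups. The list mean relative to air with saline was 0.33, 0.15 and 0.13 with smoke. It was 0.10, 0.38 and 0.29 in C57 lungs given LPS after air, so a high list mean was not particular to smoke. Between smoke and air with LPS the median difference was -0.08 as labelled and 0.01 without both doubted arrays.

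Some epithelial genes of the alveolus were higher than with air and saline, and none was above both air groups. Il33, an alarmin that alveolar type 2 cells store in mouse lung, had 9.998, 9.78 and 10.24 with smoke, against 9.19, 9.30 and 9.52 with air, a difference of 0.67 ± 0.23 as labelled and 0.55 ± 0.25 without array 3. Room air alone was as high as smoke for Il33 (10.20, 10.01 and 9.86). Sftpa1, a surfactant protein and one of the defining markers of lung, had 13.51, 13.44 and 13.48 with smoke, against 13.37, 13.27 and 13.21 with air. Of 15 type 2 genes tested, 4 lay higher without overlap and 1 lower as labelled, with a median of 0.07, and 7 higher and 1 lower without array 3, with a median of 0.13. Of 12 type 1 genes, 3 lay higher and 1 lower as labelled, with a median of 0.08, and 6 higher and 1 lower without array 3, with a median of 0.13. Aqp5, the water channel of type 1 cells, had 11.24, 10.86 and 11.03 with smoke and 10.78, 10.77 and 10.80 with air. Among all genes, 8.65% lay higher and 4.64% lower as labelled, and 13.6% and 7.38% without array 3. The number of genes above both air groups was 0 in the type 1 and the type 2 list.

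Some genes of ciliated cells and of smooth muscle were lower than with air and saline, while others of the same lists were not. Spag6l, an axonemal protein, had 9.60, 9.83 and 9.52 with smoke, against 9.998, 10.13 and 9.93 with air. Myh11, the heavy chain of smooth muscle myosin, had 9.80, 10.05 and 9.86 with smoke, against 10.13, 10.43 and 10.28 with air. Of 16 ciliated genes tested, 5 lay lower without overlap and 0 higher as labelled, against 4.64% and 8.65% of all genes. With array 3 left out, 5 lay lower and 1 (Tppp3) higher, against 7.38% and 13.6%. The number below both air groups was 0. Of 14 fibroblast and smooth muscle genes, 1 lay lower and 0 higher as labelled, against 4.64% of all genes lower. Without array 3, 6 lay lower and 2 (Tcf21 and Npnt) higher, against 7.38% and 13.6% of all genes. On smoke arrays 1 and 2, 3 of the 14 lay below both air groups and 1 above, against 1.52% and 3.35% of all genes. Tcf21, a factor of lung fibroblasts, had 10.15, 9.97 and 9.33 with smoke, against 9.67, 9.62 and 9.67 with air, and array 3 was the lowest of these arrays (Tppp3 and Npnt named after their values were seen). Tissue content varied between lungs beside these values. The mean of the airway secretory list was -0.29, 0.33 and 0.06 on the smoke arrays and -0.62, 0.61 and 0.01 on the air arrays, and that of the heart muscle list was -0.46, 0.07 and -1.30 with smoke and -0.27, 0.16 and 0.11 with air. Neither list held a gene that separated the groups, and the part of airway and heart tissue in the results was not tested.

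Macrophage markers lay above the air saline arrays at a share near that of all genes as labelled, and array 3 was the highest array for the first 3 named here. Atp6v0d2, a proton pump subunit of alveolar macrophages, had 10.03, 9.50 and 10.74 with smoke, against 9.18, 9.49 and 9.30 with air. Fabp5, a fatty acid carrier, had 10.02, 9.95 and 10.83 with smoke, against 9.53, 9.53 and 9.66 with air, although room air alone array 1 reached 10.04. Gpnmb, a marker of lipid-laden macrophages, had 9.04, 8.41 and 9.97 with smoke, against 8.38, 8.48 and 8.37 with air, and array 2 did not share the higher value. Mmp12, the macrophage elastase linked to emphysema in smoke-exposed mice, was not higher, with 7.05, 6.80 and 6.57 after smoke, against 7.12, 6.82 and 6.91 after air. Of 21 genes tested, 4 lay higher without overlap without array 3 and 2 as labelled, with a median of 0.11 and 0.21. These counts stand against 13.6% and 8.65% of all genes, and 0 of the 21 lay above both air groups.

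Neutrophil and cytokine genes were high on array 3 and not on arrays 1 and 2. Cxcl2, a neutrophil chemoattractant, had 5.16, 6.36 and 11.11 with smoke, against 5.32, 5.81 and 5.36 with air, and Ccl3, a macrophage chemokine, had 8.16, 7.81 and 12.46 with smoke and 8.44, 8.39 and 8.53 with air. The median difference of 26 cytokine and chemokine genes was 0.77 as labelled and 0.04 without array 3, and that of 14 acute-phase genes 0.66 as labelled and -0.02 without it. For the 14 neutrophil genes tested it was 0.15 as labelled and -0.49 without array 3. With that array left out 6 of them lay lower without overlap and 0 higher, against 7.38% and 13.6% of all genes. Ly6g, the neutrophil surface antigen, had 5.50, 5.45 and 7.05 with smoke and 6.32, 6.46 and 5.59 with air. On smoke arrays 1 and 2 and air arrays 1 and 3 it lay under the 40th percentile of probe sets (6.395 to 6.508). Its difference is therefore uncertain, although it counts among the 6. Il1b had 8.34, 7.92 and 11.02 with smoke and 8.96, 8.50 and 8.60 with air. The neutrophil list mean was 0.34, -0.04 and -0.29 on the air arrays themselves, and -0.43, -0.44 and -0.77 with room air alone, and smoke arrays 1 and 2 (-0.23 and -0.58) overlapped those of the uninstilled lungs. Cxcl13, the B cell chemoattractant, had 7.61, 7.48 and 10.79 with smoke, against 8.24, 8.42 and 8.81 with air and 8.65, 8.64 and 8.58 with room air alone. Arrays 1 and 2 were below all 6 air arrays, by 0.94 ± 0.54 relative to air with saline. Ccl17, a chemokine of dendritic cells, had 9.34, 8.57 and 11.25 with smoke and 8.39, 8.19 and 8.55 with air. Interferon-stimulated genes had a median of 0.42 as labelled and 0.05 without array 3 over 17 tested, and Ifit3 had 10.71, 10.04 and 11.20 with smoke and 10.13, 10.03 and 10.18 with air.

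Some heat shock genes were higher with smoke than with air and saline, while the list with room air alone was near or above the smoke arrays. Its mean relative to air with saline was 0.10, 0.22 and 0.29 with smoke, against -0.10, 0.01 and 0.09 with air and 0.27, 0.45 and 0.47 with room air alone. Hsph1, a large heat shock protein, had 8.29, 8.81 and 8.67 with smoke, against 7.98, 8.24 and 7.94 with air and 8.91, 9.21 and 9.52 with room air alone. Dnajb1, a co-chaperone of HSP70, had 8.57, 8.36 and 8.73 with smoke, against 7.96, 8.01 and 8.21 with air. Serpinh1, the collagen chaperone, had 9.09, 9.21 and 9.37 with smoke, against 8.81, 8.88 and 8.94 with air, a difference of 0.34 ± 0.12 as labelled and 0.27 ± 0.14 without array 3. Of 14 heat shock genes tested, 6 lay higher without overlap in both settings. The share of all genes was 8.65% as labelled and 13.6% without array 3. Of the 6, 0 lay above both air groups. In the endoplasmic reticulum, Hspa5 (the chaperone BiP) had 11.44, 11.57 and 12.09 with smoke, against 11.29, 11.27 and 11.29 with air. In both settings 5 of 19 genes of the unfolded protein list lay higher without overlap, beside the same shares of all genes. The mean of that list was 0.05, 0.13 and 0.43 with smoke and 0.18, 0.03 and 0.12 with room air alone, in overlapping groups. Col3a1, a fibrillar collagen chain, had 8.71, 8.99 and 8.82 with smoke, against 8.50, 8.63 and 8.51 with air. Of 19 matrix genes 4 lay higher without overlap without array 3 and 2 as labelled, against 13.6% and 8.65% of all genes. Without array 3, 1 of them was above both air groups, against 3.35% of all genes.

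**Figure D3:**
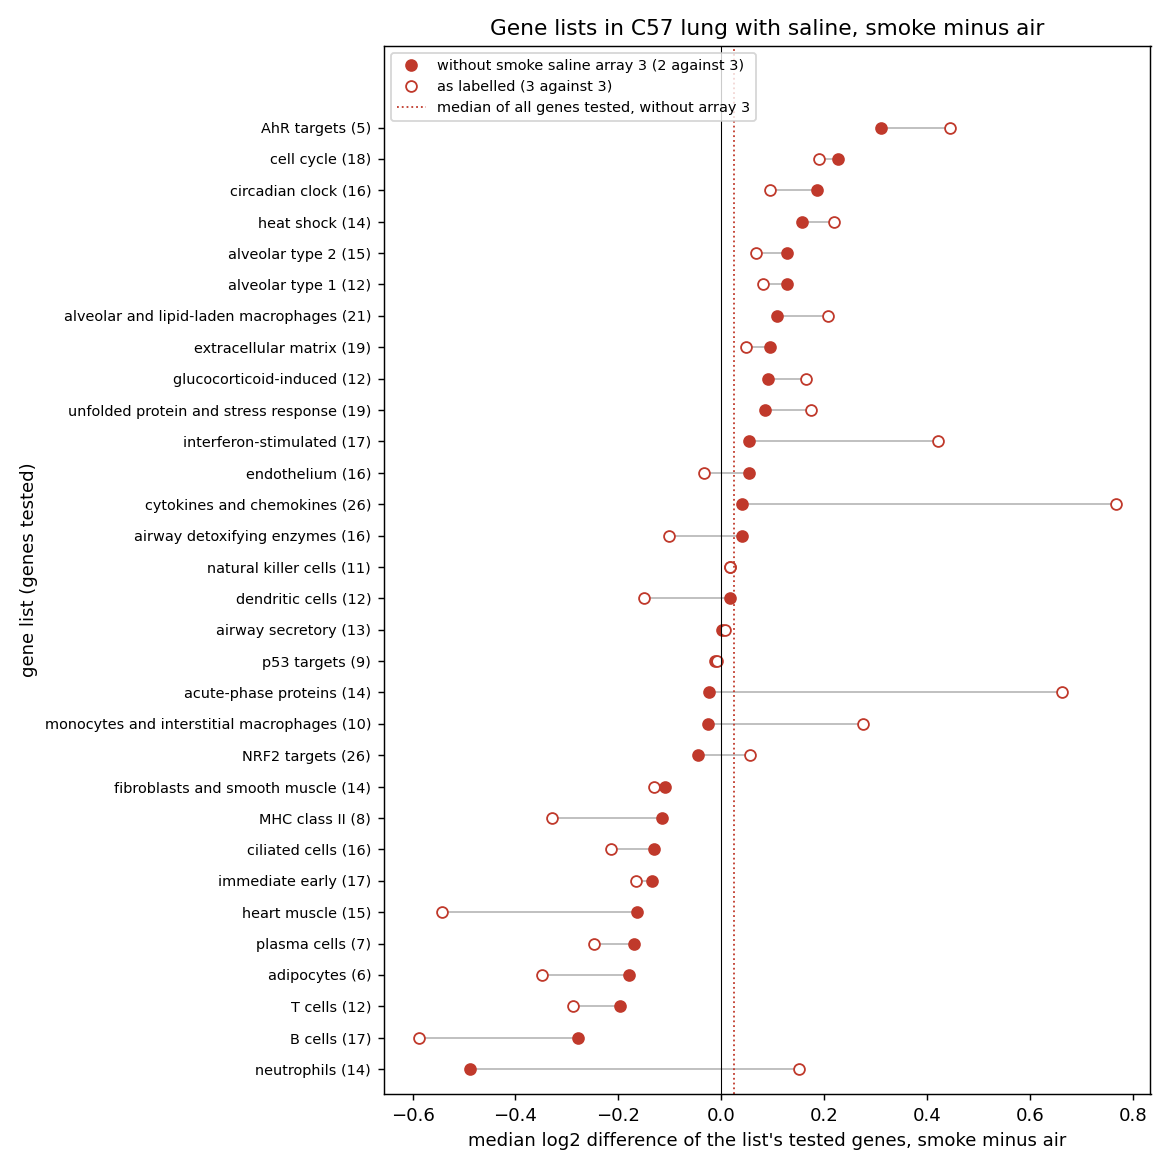
The plot of list medians gives, for each list with at least 5 genes tested, the median log2 difference, smoke minus air (x axis), without smoke saline array 3 (filled) and as labelled (open). The cytokine list moves between 0.04 without the array and 0.77 with it, and the AhR list has the highest median without it (0.31, dotted line for all genes at 0.02).

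Genes were also taken by the smallest p without both doubted arrays among those whose 3 smoke and 3 air arrays did not overlap. The 10 higher ones were Cyp1a1, Dnajb5, Kptn, Zfp809, Smim26, Per2, Fkbp2, Rexo4, Ddx55 and Tmem11. Dnajb5, a co-chaperone, had 7.85, 7.82 and 7.96 with smoke, against 7.48, 7.47 and 7.62 with air, but 7.93, 7.90 and 7.84 with room air alone. Zfp809, which in mouse silences retroviral DNA, had 10.10, 9.82 and 10.28 with smoke, against 9.52, 9.33 and 9.60 with air. Rexo4, a nucleolar exonuclease, had 9.48, 9.49 and 9.51 with smoke, against 9.19, 9.17 and 9.22 with air and 9.29, 9.44 and 9.42 with room air alone. The smoke arrays of Cyp1a1, Kptn, Fkbp2 and Rexo4 were above both air groups. The differences of the 10 lay between 0.30 and 0.85 as labelled.

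The 10 lower ones were Ripor2, BC051142, Slc28a2b, 4930444G20Rik, Pdcd2, Btla, Gm16381, Klf11, Bcl11a and AI467606. Ripor2, an inhibitor of RhoA in lymphocytes and neutrophils, had 8.88, 9.07 and 8.70 with smoke, against 9.38, 9.40 and 9.41 with air, and 8.73, 8.58 and 8.74 with room air alone. Btla, an inhibitory receptor of B and T cells, had 7.85, 8.07 and 6.84 with smoke, against 8.50, 8.60 and 8.66 with air. Bcl11a, a factor needed for B cell development, had 8.02, 8.05 and 7.21 with smoke, against 8.48, 8.78 and 8.83 with air. Pdcd2 had 8.16, 8.30 and 8.10 with smoke, against 8.56, 8.41 and 8.52 with air and 8.31, 8.50 and 8.35 with room air alone. The adjusted p of each of these 20 genes was 0.442 or more as labelled (limma). Prg4, which encodes the lubricant lubricin and was chosen after its values were seen, had 6.57, 6.75 and 7.003 with smoke, against 5.24, 5.34 and 5.62 with air and 5.33, 5.66 and 4.96 with room air alone. Its difference was 1.37 ± 0.45 as labelled and 1.26 ± 0.51 without array 3. In a fit of smoke arrays 1 and 2 and the 3 air arrays alone, 0 genes passed and 764 had an unadjusted p under 0.05. Prg4 had the smallest adjusted p there (0.062, limma). On every array of both air groups Prg4 lay under the 40th percentile of probe sets (6.415 to 6.508). Of these 3 groups it exceeded that floor only with smoke, so the size of its difference is uncertain and its p is no support.

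The same comparison in AKR lungs gives a reference for the response. Smoke against air with saline in AKR passed for 5 genes as labelled (0.034%): Nqo1, Per2, Mthfd1l and Pmm1 rose and Spon2 fell, of which Mthfd1l and Pmm1 were named after their values were seen. With both doubted C57 arrays out of the fit 49 genes passed (0.333%). AKR saline arrays and C57 arrays differ in the spread of their deposited values and may have been normalised separately, so only differences within a strain are set side by side. The difference between the strains' responses (C57 minus AKR) passed for 0 genes (0%) as labelled, with 762 at an unadjusted p under 0.05 and a smallest adjusted p of 0.0568 (limma). Without array 3 it passed for 0 genes (0%), with 520 and a smallest adjusted p of 0.261, and without both doubted arrays for 0 genes (0%), with 657 and 0.166. Across all 14705 genes the C57 difference without array 3 and the AKR difference correlated at r = 0.09, genes not being independent replicates.

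Against the C57 values of Nqo1 given above, AKR lungs had 8.84, 8.61 and 7.53 after smoke and 6.999, 6.85 and 7.30 after air. It rose by 1.28 ± 0.22 in AKR (adjusted p = 0.0314, limma), and the difference between strains was -1.46 ± 0.32 as labelled (adjusted p = 0.395) and -1.32 ± 0.33 without array 3 (adjusted p = 0.775, limma). Slc7a11 differed by -0.19 in C57 without array 3 and by 2.69 in AKR, where smoke gave 10.11, 10.64 and 8.75 and air 6.73, 7.05 and 7.64. The NRF2 list had a median of -0.04 in C57 without array 3 and 0.27 in AKR, where 5 genes lay higher without overlap (background 6.39% of genes higher and 5.33% lower). Cyp1a1 differed by 0.93 in C57 without array 3 and by 0.41 in AKR, where smoke gave 5.69, 5.93 and 5.85 and air 5.45, 5.38 and 5.40. It was near or under the floor of intensity in C57 air lungs, and the deposited AKR values were lower still, so both sizes are uncertain. Its strain difference was 0.44 ± 0.33 as labelled and 0.52 ± 0.36 without array 3 (adjusted p = 1 in both, limma). The clock list had a median of 0.19 in C57 without array 3 and 0.43 in AKR, with Per2 at 0.68 and 0.92, Cry1 at 0.46 and 0.65, and Arntl at -0.38 and -1.05.

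Spon2, a secreted matrix protein, had the smallest adjusted p for a difference between strains, as labelled and without array 3, and did not pass in either. It had 6.91, 7.47 and 7.29 with smoke and 7.25, 7.75 and 7.41 with air in C57, and 6.36, 6.46 and 6.33 with smoke and 8.13, 8.03 and 7.98 with air in AKR. The difference between strains was 1.41 ± 0.24 as labelled (adjusted p = 0.0568, limma) and 1.38 ± 0.25 without array 3 (adjusted p = 0.261). Serpinh1 had a strain difference of 0.96 ± 0.18 as labelled (adjusted p = 0.116), being 0.34 in C57 and -0.61 in AKR, and of 0.89 ± 0.19 without array 3 (adjusted p = 0.437). As labelled, the other genes with the smallest p for a higher C57 response were Dnajb5, Heatr5a and Banp, and those for a lower one, after Nqo1, were Krt15, 3000002C10Rik, Hk1 and Fis1. The heat shock list had a median of 0.16 in C57 without array 3 and -0.53 in AKR, with Hsph1 at 0.50 in C57 and -1.35 in AKR. The B cell list was lower in both strains, with a median of -0.28 in C57 without array 3 and -0.35 in AKR. In AKR 13 of 17 genes lay lower without overlap, against 5.33% of all genes. The cell cycle list had a median of 0.23 in C57 without array 3 and 0.01 in AKR.

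**Figure D4:**
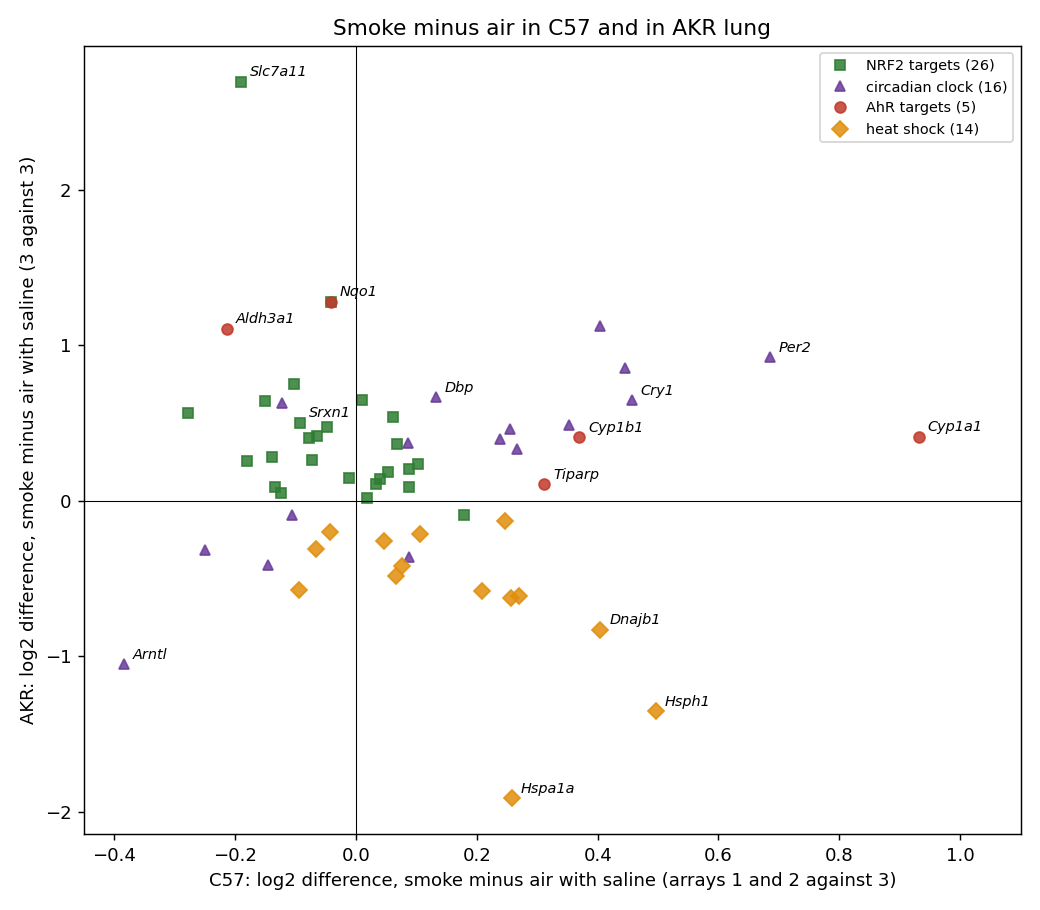
The plot of C57 against AKR gives the log2 difference, smoke minus air with saline, in C57 without array 3 (x axis) and in AKR (y axis) for the tested members of 4 lists. Nqo1 belongs to the AhR and NRF2 lists. Cyp1a1 lies farthest right (0.93 in C57, 0.41 in AKR), Slc7a11 highest (-0.19 in C57, 2.69 in AKR), and the heat shock genes below 0 in AKR.

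In C57 lungs given LPS, smoke against air passed for 0 genes (0%) as labelled, with 217 at an unadjusted p under 0.05 (limma), and smoke LPS array 3 is in doubt there. The difference between the smoke response with saline and that with LPS passed for 0 genes (0%), with 1081 at an unadjusted p under 0.05 and a smallest adjusted p of 0.595 (limma). Without array 3 it passed for 0 genes (0%), with 448 and a smallest adjusted p of 1, and without both doubted arrays for 0 genes (0%), with 599 and 0.284. Cyp1a1 had 5.89, 6.65 and 7.32 after smoke and LPS and 5.94, 5.78 and 5.50 after air and LPS, so the array in doubt was the highest of the 3. The difference with LPS was 0.88 as labelled and 0.53 without the doubted arrays. On all air LPS arrays Cyp1a1 lay under the 40th percentile of probe sets (6.33 to 6.48). Per2 overlapped between the groups with LPS (9.08, 9.24 and 9.49 after smoke, 8.83, 9.37 and 9.32 after air), and the clock list had a median of -0.21 without the doubted arrays. As labelled, the genes with the smallest p for a higher response with saline were Dnajb5, Il34, C1qc, Brpf3 and Dnajc11, and for a lower one Ripor2, Nrgn, I730030J21Rik, Kif21b and Stk17b. Ripor2 differed by -0.51 with saline and 0.25 with LPS as labelled. C1qc, a chain of complement C1q made by macrophages, differed by 0.34 with saline and -0.47 with LPS as labelled, and by 0.19 and -0.35 without the doubted arrays. Across all genes, the differences with saline and with LPS, without the doubted arrays, correlated at r = -0.188.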

How the data were processed

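Expression was measured on Affymetrix arrays hybridised with biotin-labelled cRNA of mouse lung, per the labels' protocols. The deposited values are log2 intensities that the authors made with RMA, which corrects background, quantile-normalises arrays and summarises each set's probes, per the submitters' processing notes; its version and settings are not given in the sources used here. Quantile normalisation gives arrays nearly the same distribution, so a shift shared by most genes would not be seen. The table holds 35556 probe sets and 31 arrays, and no scan or slide batch is given.

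GEO's platform annotation names 21789 probe sets with 1 gene symbol and 1621 with several (not used), and 12146 are unnamed here. Each of 19938 genes was read from the probe set brightest on average. The test took the 14705 genes that exceeded the 40th percentile of probe sets on 3 or more arrays. Symbols were updated through Entrez identifiers (99.6% matched).

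Differences were tested with limma 3.58.1 in R 4.3.3, with 11 group means fitted to all 31 arrays, two-sided, and Benjamini-Hochberg adjustment over all genes tested, at 0.05. Interactions are differences of differences in that fit. Errors after ± are standard errors of that fit, without array 3 from the fit without it. The code was tested on simulated data. Replicate numbers are in the titles, and the main fit did not use them as pairs. Deviations of same-numbered smoke and air arrays from their group means correlated at -0.0186, -0.067 and -0.0224. The smoke mean includes array 3, which departs most, so these values cannot show whether the numbers pair arrays. The same correlations were -0.118, -0.173 and -0.539 in AKR with saline, and 0.549, 0.0267 and 0.187 in C57 with LPS.

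The 34 gene lists and the members were chosen with earlier results of these data known. Genes named are the 10 higher and 10 lower with the smallest p without both doubted arrays among genes whose smoke and air arrays do not overlap, in each list as many as 4 genes by size of difference without array 3, a fixed set (Cyp1a1, Cyp1b1, Tiparp, Ahrr, Ahr, Nqo1, Slc7a11, Hmox1, Gclc, Srxn1, Mmp12, Saa3, Cxcl2 and 7 clock genes), and for each interaction 5 genes each way by smallest p. Others in a list are named after their values were seen. Promoter windows are from RefSeq. Plots used matplotlib 3.10.9 (Python 3.11.15). Alternatives tried were other filters, array centring, means of a gene's probe sets, another eBayes setting, quality weights, subsets of arrays and each array left out; the comparison with room air alone was added after the data were seen.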

Additional observations from a re-analysis of the deposited data

Results flagged for a closer look

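The mean of the heat shock list differed in direction between the strains. Group means differed (smoke minus air) by 0.202 on the log2 scale in C57 and by -0.609 in AKR. All 3 C57 smoke arrays lay above all 3 C57 air arrays, but narrowly (lowest smoke array 0.098, highest air array 0.095). All 3 AKR smoke arrays lay below all 3 AKR air arrays (highest smoke array -0.513, lowest air array -0.442, relative to the AKR air mean). Without smoke saline array 3 the C57 difference of means was 0.159. The difference between the strains in this list mean was not tested, and C57 lungs with room air alone had list values (0.27, 0.45 and 0.47 relative to air with saline) above or near those of the smoke arrays (0.10, 0.22 and 0.29).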

How the results depend on the processing

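Smoke against air with saline in C57 gave 0 genes in 18 of 19 alternatives, with a smallest adjusted p of 0.062 to 1 (limma), and 24 genes with array quality weights, whose estimation stopped before it converged. Leaving out each of the 6 arrays in turn gave 0 each time. With the replicate number as a block it gave 0 genes, and whether the numbers pair arrays is not known. Smoke by LPS gave 0 in all 20 alternatives. The strain difference, 0 as labelled, gave 1 gene (Spon2) with a 60th percentile filter, 1 (Spon2) with the replicate block, and 0 to 8 when single arrays were left out: 8 without AKR smoke saline replicate 3, and 1 without C57 smoke saline replicate 1 or C57 air saline replicate 2. The causes were not tested.

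Of 1635 values of the named genes under alternatives, 1560 kept direction and side of the threshold, 14 passed (array quality weights) and 61 turned sign. Without smoke saline array 3, with or without the other doubted array and with the groups alone, Ahr came to 0.0523, Angptl4 -0.522, Ccl3 -0.468, Ciart 0.238, Cxcl13 -0.942, Dbp 0.132, Il1b -0.556, Mt2 -0.279, Npnt 0.178, Slc7a11 -0.191 and Tppp3 0.087. With array quality weights Ahr was 0.0657, Angptl4 -0.129, Ciart 0.286, Cxcl13 -0.553, Il1b -0.0787, Mmp12 0.012, Npnt 0.121 and Tppp3 0.0224, and with the mean of a gene's probe sets Ciart was 0.0813. Leaving out single arrays gave ranges across 0 of -0.248 to 0.0523 in Ahr, -0.214 to 0.0969 in Aldh3a1, -0.522 to 0.604 in Angptl4, -0.384 to 0.18 in Arntl, -0.468 to 1.85 in Ccl3, -0.324 to 0.238 in Ciart, -0.249 to 0.0387 in Clock, -0.942 to 0.712 in Cxcl13, -0.923 to 0.132 in Dbp, -0.132 to 0.446 in Hlf, -0.556 to 0.99 in Il1b, -0.649 to 0.153 in Ly6g, -0.279 to 0.821 in Mt2, -0.131 to 0.178 in Npnt, -0.0435 to 0.404 in Per3, -0.191 to 1.5 in Slc7a11, -0.0929 to 0.0414 in Srxn1, -0.0075 to 0.404 in Tcf21 and -0.328 to 0.087 in Tppp3. Genes under the floor of intensity have no interpretable difference here.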
